A study of Mus musculus with 4 samples.

Results

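The claudins are the membrane proteins that form the strands of tight junctions, and 9 of them were taken here from a mouse colon epithelium dataset that lists 25796 genes. The members are Cldn1, Cldn2, Cldn3, Cldn4, Cldn7, Cldn8, Cldn12, Cldn15 and Cldn23. They were found by gene symbol, and for each gene the transcript with the highest mean over the 4 libraries was kept, out of 21 listed transcripts of these genes. RNA came from epithelial cells released from the colon of mice with a chelating buffer. By genotype label, 2 libraries are WT and the other 2, called KO-labelled 1 and 2 here, are Ythdf1 KO. The Ythdf1 protein binds N6-methyladenosine (m6A) in mRNA. All are inputs of an m6A immunoprecipitation, which means RNA before enrichment. The labels give no strain, age or sex, do not say how the Ythdf1 gene was altered or in which cells, and leave unstated whether each library is a mouse of its own. The p-values below thus reflect the spread among these 4 samples alone, and that spread may be technical.

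A claudin crosses the membrane several times, and its first extracellular loop meets that of a claudin on the neighbouring cell. Pore-forming claudins let ions and water pass between cells, while sealing claudins close that route. Cldn2 forms a pore for cations and water and, in the colon, is known from the crypt. Cldn15 forms a cation pore that supplies sodium to the gut lumen. Cldn1, Cldn3, Cldn4, Cldn7 and Cldn8 were counted here as sealing, of which Cldn7 is also known from the lateral membrane. Cldn12, linked to calcium passage, and Cldn23, a claudin of differentiated colonocytes, have less settled roles and were put in neither class.

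Of the 9 claudins, only Cldn2 and Cldn1 had groups that did not overlap: Cldn2 was at about 2 times the WT level in the KO-labelled libraries, and Cldn1, at low counts, was far below it. Of all tested genes, 14.3% lay above both WT libraries in this way and 21.4% below both. The sealing claudins Cldn3 and Cldn7 had group means with ratios of 1.03 and 0.962 (KO-labelled over WT). No claudin passed the test across all genes, limma-trend with Benjamini-Hochberg adjustment at 0.05, which called 0% of 23116 genes (1257 genes, or 5.44%, had an unadjusted p under 0.05). The start-site sequences of the pore-forming pair and of Cldn1 are shown because Cldn2 and Cldn1 had groups apart and Cldn15 is the other pore former. Each is the 250 bases before the start of the kept transcript, 5′ to 3′ on the gene's strand, from RefSeq's GRCm38.p6. They lie at chrX:139800558-139800807 (plus strand) for Cldn2, chr5:136967619-136967868 (plus strand) for Cldn15 and chr16:26371840-26372089 (minus strand) for Cldn1. Capitals mark matches to the searched motifs, on either strand.
Cldn2: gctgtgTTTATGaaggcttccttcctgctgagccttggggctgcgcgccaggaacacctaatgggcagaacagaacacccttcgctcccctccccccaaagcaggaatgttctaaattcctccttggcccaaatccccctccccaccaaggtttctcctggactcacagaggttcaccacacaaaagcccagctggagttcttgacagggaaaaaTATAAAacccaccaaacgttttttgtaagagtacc
Cldn15: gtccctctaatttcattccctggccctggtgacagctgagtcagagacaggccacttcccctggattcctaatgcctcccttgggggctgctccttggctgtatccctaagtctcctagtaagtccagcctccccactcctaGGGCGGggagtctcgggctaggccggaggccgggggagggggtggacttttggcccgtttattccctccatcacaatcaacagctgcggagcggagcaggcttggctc
Cldn1: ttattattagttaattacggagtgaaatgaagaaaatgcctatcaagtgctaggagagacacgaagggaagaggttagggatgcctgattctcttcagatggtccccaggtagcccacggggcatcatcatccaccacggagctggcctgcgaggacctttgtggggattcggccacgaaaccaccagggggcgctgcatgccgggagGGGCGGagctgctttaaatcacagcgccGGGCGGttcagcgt
The 5 motifs were the TATA box (TATAAA), the Sp1 box (GGGCGG), a Cdx core (TTTATG), the Snail E-box (CAGGTG) and the CCAAT box (CCAAT), and no match in these 3 sequences overlapped another. The Cldn2 sequence held a TATA box whose first base lies 35 bases before the start and a Cdx core 244 bases before it. Of the 7 members with an entry, no other held either; 12.4% of 32851 promoter windows of this length hold the TATA box and 10.8% the Cdx core. Cldn1 held the Sp1 box at 42 and 14 bases before the start and Cldn15 at 108, against 32.7% of windows; Cldn3, Cldn4 and Cldn7 held it too. The Snail E-box was found in Cldn4 and Cldn7 (17.2% of windows), the CCAAT box in none of the 7 (33.8%), and Cldn12 held none of the 5 motifs. Cldn8 and Cldn23 had no entry. A match is a run of letters and says nothing of binding in these cells.

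The values are normalised read counts: reads divided by a size factor per library, where 1 read was worth 0.827 to 1.13. Reads on the kept transcripts came to 21686140 to 30951138 per library. Transcript lengths were not used, so a value is comparable between libraries but not between claudins. Ythdf1 itself was not lower in the KO-labelled libraries: it stood at 1088 and 775.4 in WT 1 and 2 against 1752 and 1737 in the others, a log2 difference of 0.92 ± 0.28 (SE, adjusted p = 0.759 in limma-trend). The directions below therefore rest on labels that this gene does not bear out. All 10 colon epithelium markers, such as Epcam and Cdh1, were listed, with summed values of 773130 to 993994. Summed leukocyte markers (14 of 14 listed) were 1765 to 1977 in WT and 961 to 1293 in the KO-labelled libraries. Of the 14, 4 lay below both WT libraries and 0 above, beside 21.4% and 14.3% of all genes. Lyz2 and Cd4 were at 0 in both KO-labelled libraries, while Cd3d and Cd79a had higher means there (ratios of 1.72 and 1.45). Endothelial markers (8 of 8) were 1323 to 1497 and 733 to 947, and stromal and muscle markers (10 of 10) 1692 to 3653 and 1398 to 2191. Markers of epithelium from other sites (7 of 10 listed) were 3516 to 4545 and 2045 to 4288. The part of these cells in the claudin values was not tested. Fewer cells of a type and less RNA per cell cannot be told apart in such bulk samples.

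**Figure D1:**
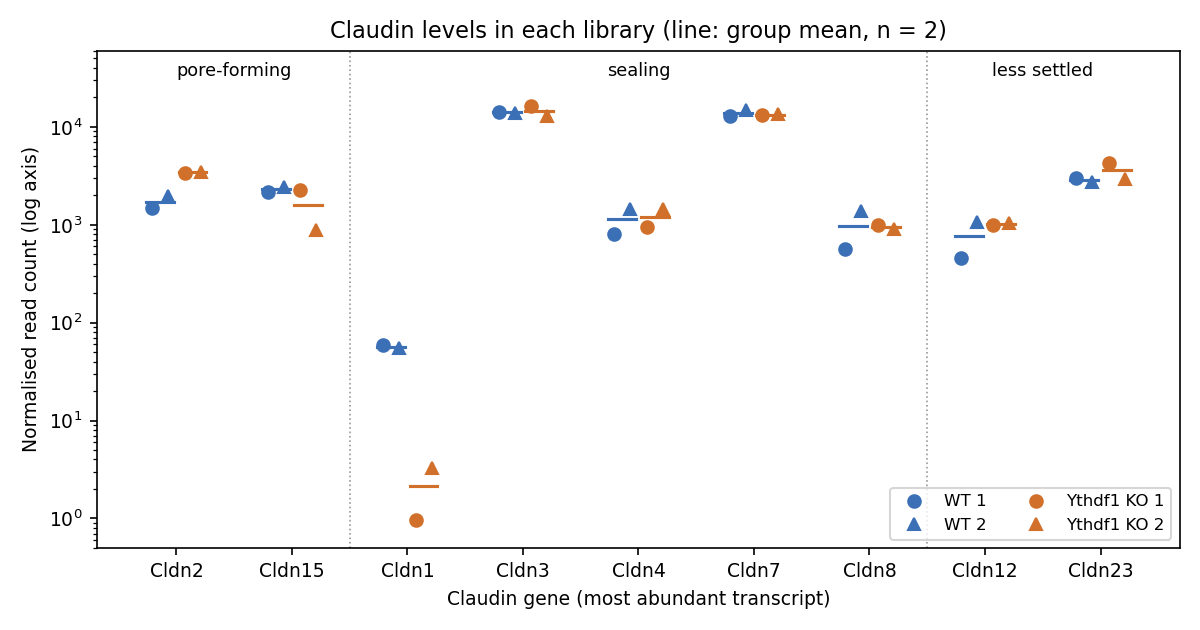
Normalised read counts (log axis, not divided by transcript length) of the 9 claudins in the 4 libraries, blue for WT and orange for the KO-labelled libraries, with a line at each group mean (n = 2). Cldn2 lies at 3386 and 3459 in the orange libraries against 1472 and 1954 in the blue ones, Cldn1 lies at 3.309 or less against 54.52 or more, and the groups of the other 7 overlap.

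Of the pore-forming claudins, Cldn2 had a mean above WT and Cldn15 a mean below it. Cldn2 (gene ID 12738, NM_016675.4, mm10 chromosome X, 139800808 to 139811386) measured 1472 (WT 1), 1954 (WT 2), 3386 (KO-labelled 1) and 3459 (KO-labelled 2). Both values of the second group exceeded both of the first, and its 2 libraries lay within 1.02 times of each other. The means were 1713 ± 341 and 3423 ± 51.5 (SD, n = 2 each), a ratio of 2. The limma-trend log2 difference was 1.01 ± 0.22 (SE), unadjusted p = 0.00366, rank 12 of 23116 genes by p, and adjusted p = 0.759. An unadjusted p under 0.05 with a higher value was found for 1.92% of genes, and for 1 of the 9 claudins.

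The tools did not give Cldn2 the same call. The authors' deposited table gave its kept transcript a log2 fold change of 1.00 with q = 0.000199; among the kept transcripts, 1 of the 9 claudins and 4.47% of all genes had a q under 0.05 there (1.24% of all genes with a higher value). DESeq2 on recovered reads gave a log2 fold change of 1.01 with an adjusted p = 0.000141, in a test that called 4.76% of genes. edgeR's quasi-likelihood test on the same reads gave 1.02 with an unadjusted p = 0.00196 and an adjusted p = 0.805; it called 0% of genes, with 4.66% at an unadjusted p under 0.05. limma without a trend, which was also fitted without the robust option, called 2.73% of genes and gave Cldn2 an adjusted p = 0.667. The size was alike in these fits, while the call was not. Leaving out any single library kept the log2 difference between 0.81 (without WT 1) and 1.22 (without WT 2).

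All 6 listed Cldn2 transcripts were higher in both KO-labelled libraries than in both WT libraries, though they share reads and are not separate measurements. NM_016675.4 and XM_006528490.3 had the highest values and a ratio of 2. The other 4 had ratios of 1.58 to 1.68; they include XM_006528486.3 and XM_006528487.3, which begin within a few bases of the same start. XM_006528488.2, which begins furthest downstream, at 139807895, stood at 703.3 and 941 in WT against 1355 and 1361 in the KO-labelled libraries. The authors' deposited table had q under 0.05 for 2 of the 21 transcripts of the 9 claudins, which were these first 2 Cldn2 transcripts; over all transcripts the share was 3.67%.

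**Figure D2:**
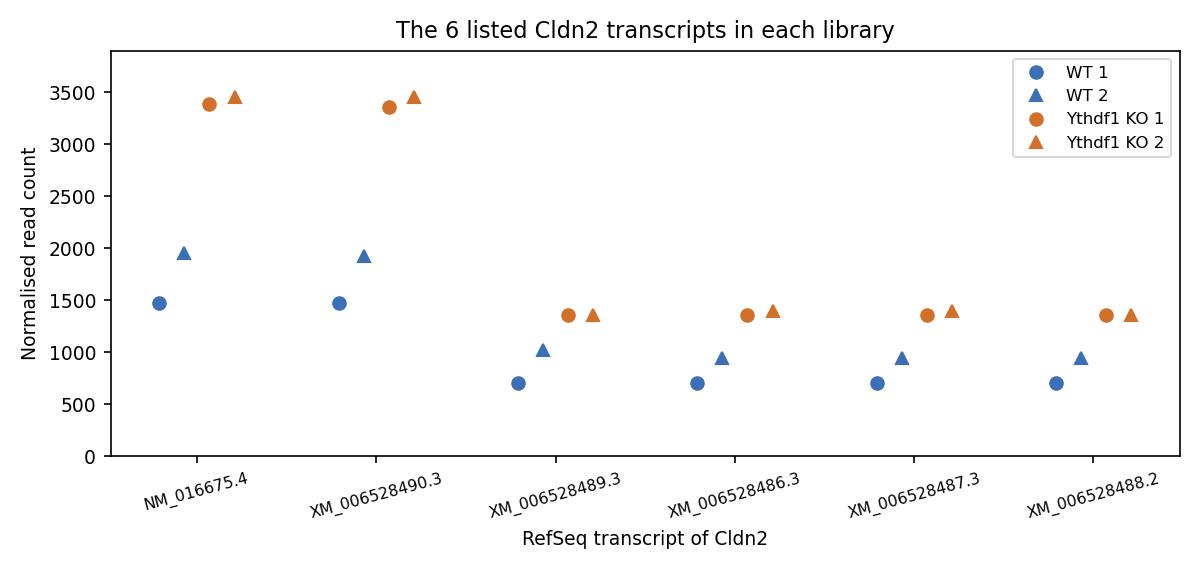
Normalised read counts of the 6 listed Cldn2 transcripts in each library (linear axis from 0; blue WT, orange KO-labelled). In every transcript both orange points lie above both blue points, with a wider gap in the first 2, at 3358 to 3459 against 1472 to 1954.

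Cldn15 (NM_021719.4, chromosome 5, 136967869 to 136975845) measured 2147 (WT 1), 2440 (WT 2), 2281 (KO-labelled 1) and 879.3 (KO-labelled 2). Only the last library was low; KO-labelled 1 lay between the WT libraries. The means were 2294 ± 207 and 1580 ± 991 (SD, n = 2 each), and the log2 difference was -0.69 ± 0.45 (SE, adjusted p = 0.799 in limma-trend). Without KO-labelled 2 it was -0.0049, and without KO-labelled 1 it was -1.38, so that 1 library set the value. With 1063 reads in KO-labelled 2, the exact Poisson 95% interval was 827 to 934 normalised counts, which covers counting error only and lies below the other libraries' values.

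Among the sealing claudins, Cldn1, the claudin of the skin barrier, had the fewest reads and the largest log2 difference. Cldn1 (NM_016674.4, chromosome 16, 26356645 to 26371839) measured 58.61 (WT 1), 54.52 (WT 2), 0.9695 (KO-labelled 1) and 3.309 (KO-labelled 2). These were 52, 54, 1 and 4 reads, so the groups were apart but the second rested on 5 reads in all, and Cldn1 passed the filter on low values mainly through WT. The ratio of reads, scaled by depth, was 0.0395 with an exact 95% interval of 0.0126 to 0.0952 for counting error only. The log2 difference was -4.30 ± 2.41 (SE), with an unadjusted p = 0.121 and an adjusted p = 0.765 in limma-trend. A place below both WT libraries was shared by the 21.4% of genes given above, and the authors' deposited table gave q = 0.215.

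Cldn3 (NM_009902.4, chromosome 5, 134986214 to 134987476), a strand-forming claudin of many simple epithelia, stood at 14235 and 13992 in WT against 16172 and 13002 in the KO-labelled libraries 1 and 2. Both WT values lay between the other 2. The log2 difference was 0.04 ± 0.15 (SE, adjusted p = 0.999 in limma-trend), and it was -0.12 without KO-labelled 1.

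Cldn7 (NM_016887.6, chromosome 11, 69965421 to 69967886), which binds the adhesion protein Epcam, stood at 12820 and 15004 in WT against 13267 and 13504 in the KO-labelled libraries. The latter lay inside the WT range. Its log2 difference was -0.05 ± 0.13 (SE, adjusted p = 0.978), and 0.06 without WT 2. The second listed Cldn7 transcript, which begins upstream, had a ratio of 0.942 (KO-labelled over WT) beside 0.962 for the kept one. Epcam stood at 30387 and 29956 in WT against 31627 and 33790 in the others, a ratio of 1.08 (adjusted p = 0.82 in limma-trend).

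Cldn4 (NM_009903.2, chromosome 5, 134945123 to 134946934) was counted here as sealing, and it is also known to work together with Cldn8 in the kidney. It measured 807 (WT 1), 1464 (WT 2), 943.3 (KO-labelled 1) and 1447 (KO-labelled 2). The groups overlapped, and the WT libraries differed 1.81 times while the group means had a ratio of 1.05. The log2 difference was 0.10 ± 0.39 (SE, adjusted p = 0.999 in limma-trend). It turned to -0.33 without WT 1 and to -0.20 without KO-labelled 2. Cldn3 and Cldn4 lie next to each other on chromosome 5, with 39279 bases between the kept transcripts. Cldn3 was highest in KO-labelled 1 and Cldn4 in WT 2.

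Cldn8 (NM_018778.3, chromosome 16, 88560826 to 88563183) measured 565.8 (WT 1), 1371 (WT 2), 988.9 (KO-labelled 1) and 909.1 (KO-labelled 2). The WT libraries differed 2.42 times, with the others between them, and the exact Poisson 95% intervals for WT 1 (517 to 618) and WT 2 (1299 to 1446) did not meet. The log2 difference was 0.11 ± 0.46 (SE, adjusted p = 1 in limma-trend). It turned to -0.53 without WT 1 and, in edgeR and in DESeq2, to -0.01.

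Cldn12 and Cldn23 had means above WT without passing the test. Cldn12 (NM_022890.2, chromosome 5, 5505015 to 5514976) measured 461 (WT 1), 1068 (WT 2), 986 (KO-labelled 1) and 1041 (KO-labelled 2). Only WT 1 was low, and the log2 difference of 0.53 ± 0.45 (SE, adjusted p = 0.82 in limma-trend) turned to -0.08 without it. All 7 listed Cldn12 transcripts had a ratio between 1.24 and 1.43, on shared reads. Cldn23 (NM_027998.4, chromosome 8, 35824709 to 35826559) stood at 3005 and 2738 in WT against 4244 and 2929 in the KO-labelled libraries 1 and 2. Here KO-labelled 1 was high, and the log2 difference of 0.30 ± 0.23 (SE, adjusted p = 0.819 in limma-trend) was 0.03 without it.

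WT 1 was the lowest of the 4 libraries for 5 of the 9 claudins: Cldn2, Cldn4, Cldn7, Cldn8 and Cldn12. The share of all genes with WT 1 lowest was not counted, so this is not a trait of the claudins. The 9 claudins had a median log2 difference of 0.10, beside -0.09 over all genes tested and 0.00 over those with a mean of at least 100.

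**Figure D3:**
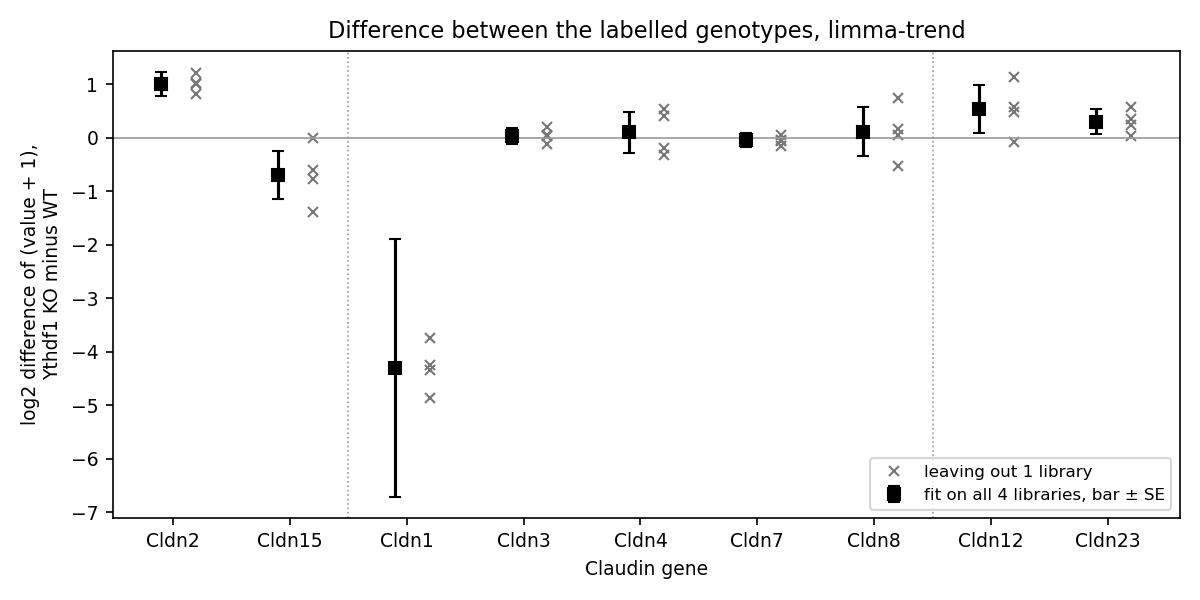
Log2 difference of (value + 1), KO-labelled minus WT, for each claudin: squares with bars give the limma-trend estimate and its SE, and crosses give the estimates with 1 library left out. The crosses of Cldn2 stay between 0.81 and 1.22, those of Cldn1 between -4.87 and -3.74, and those of Cldn3, Cldn4, Cldn7, Cldn8 and Cldn12 lie on both sides of 0.

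The pore-forming claudins were compared with the sealing claudins inside each library, on log2(value + 1). A scaling factor for the whole library nearly cancels there, except at low values such as those of Cldn1, where the added 1 weighs. The mean log2 value of the pore-forming pair minus that of the 5 sealing claudins was 0.37 in WT 1, 0.22 in WT 2, 1.74 in KO-labelled 1 and 0.80 in KO-labelled 2. Both later values exceeded both earlier ones, and the difference between the group means was 0.98, with a within-group SD of 0.48. It was 0.51 without KO-labelled 1 and between 0.91 and 1.45 without any other library, and quantile normalisation, which also reshapes each library's values, gave 0.57. No p is given, since the members were chosen with results known and an exact two-sided permutation test of 2 against 2 cannot go below 0.333. The value depended on Cldn1: with claudins of a mean under 100 left out, which removed only Cldn1, the difference was 0.11 and the groups overlapped (-0.77 and -1.05 in WT, -0.44 and -1.16 in the others). The log2 ratio of the summed values, in which Cldn1 has little weight, differed by 0.32. It was -2.98 and -2.86 in WT against -2.47 and -2.73 in the others, without overlap. Lengths were not used in this sum, so claudins with longer transcripts weigh more in it.

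Within the pair, Cldn2 and Cldn15 gave unlike values. With Cldn2 alone against the sealing claudins the difference was 1.83, and with Cldn15 alone it was 0.13. Both values include Cldn1 among the sealing claudins and depend on it. Against Cldn3, Cldn4, Cldn7 and Cldn8 singly, the log2 ratio of Cldn2 differed by 0.91 to 1.06 (KO-labelled minus WT). That of Cldn15 differed by -0.80 to -0.64. The ratio of Cldn2 to each of the 8 other claudins was higher in both KO-labelled libraries than in both WT libraries. These ratios share Cldn2 and are not independent. Cldn2 itself lay above both WT libraries, as did 14.3% of all genes, and the share of genes with such ratios was not counted. The log2 ratio of Cldn2 to Cldn7 was -3.12 and -2.94 in WT and -1.97 and -1.96 in the others. That to Cldn3 was -3.27 and -2.84 against -2.26 and -1.91. The difference between group means was smallest against Cldn12, at 1.67 and 0.87 against 1.78 and 1.73. Against Cldn15, the other pore former, it was the largest apart from Cldn1, at -0.54 and -0.32 against 0.57 and 1.97. The ratios of Cldn15 to the other 8 lay above both WT values in 1 case (Cldn1) and below in 3 (Cldn2, Cldn3 and Cldn23).

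**Figure D4:**
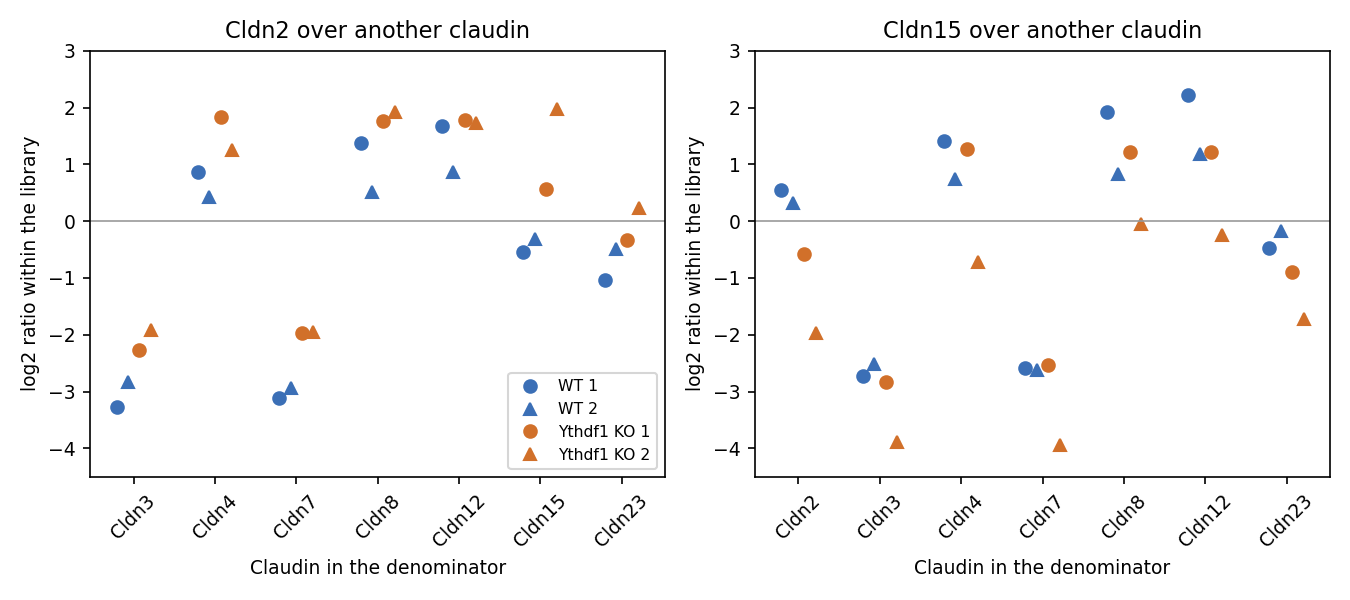
Log2 ratio within each library of Cldn2 (left) and of Cldn15 (right) to 7 other claudins, without Cldn1 (blue WT, orange KO-labelled). On the left both orange points lie above both blue points for all 7 denominators, and on the right KO-labelled 2 is the lowest point for each.

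Since Cldn2 is known from the crypt, markers of crypt and surface cells are given beside it. Summed values of the 12 crypt and cycling genes were 22939 and 24297 in WT and 30111 and 32385 in the KO-labelled libraries. Of these genes 5 lay above both WT libraries and 0 below, beside 14.3% and 21.4% of all genes, and 0 passed the test. Sox9, a transcription factor of crypt cells, stood at 4647 and 3751 against 7328 and 6633 (adjusted p = 0.759 in limma-trend). Mki67, a marker of cycling cells, stood at 6489 and 8244 against 9025 and 11002, and Lgr5, the stem cell receptor, at 279.5 and 232.2 against 328.7 and 287.9. The stem cell gene Ascl2 had a lower mean, at 278.4 and 121.2 against 46.54 and 276.3. So did the replication gene Pcna, at 869 and 839 against 852.2 and 474.8. Axin2, a target of Wnt signalling, had a ratio near 1, at 2319 and 2186 against 1941 and 2677. The remaining genes of this list (Ephb3, Cd44, Ephb2, Top2a, Myc and Ccnb1) had ratios of 1.13 to 1.62 (KO-labelled over WT). Of the 12 surface colonocyte genes, 6 lay below both WT libraries and 2 above, beside 21.4% and 14.3% of all genes. Car1, a carbonic anhydrase, stood at 102727 and 116128 against 73552 and 42374. The 2 above were Car4, at 9792 and 9705 against 10222 and 12343, and Lypd8, at 111841 and 123988 against 134261 and 148992. The summed surface values overlapped (877907 to 927015 in WT, 840470 to 1036407 in the others). Muc3 weighs most in these sums, at 502920 and 418487 in WT against 447119 and 685282, so they say little of the other surface genes. Cldn2 was thus higher in the libraries where the crypt genes were higher in sum. Mki67 and Sox9, with the highest values of the 12 genes, weigh most in that sum, and Ascl2 and Pcna had lower means. The part of crypt cells in the Cldn2 value was not tested.

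Of the 32 listed tight junction partners (scaffolds, occludin-like and adhesion proteins, polarity proteins), 0 passed the test, 7 lay above both WT libraries and 3 below, beside 14.3% and 21.4% of all genes, and their median log2 difference was 0.05. Lsr, which recruits proteins to the corners where several cells meet, stood at 1564 and 1298 in WT against 1937 and 3135 in the KO-labelled libraries. Its limma-trend adjusted p was 0.759, and DESeq2, which called 1 of the 32 partners and 4.76% of all genes, gave 0.0452. Mpp5, a polarity scaffold now named Pals1, stood at 1051 and 1183 against 1450 and 1505. Magi3, another scaffold, stood at 3815 and 3408 against 4199 and 4684, and its relative Magi2 at 52.98 and 133.3 against 138.6 and 193.6. On the lower side, Tjp3, which anchors claudins to actin, stood at 15665 and 14590 against 13691 and 13654, and the polarity protein Pard3 at 2443 and 2440 against 2392 and 1736. None of these passed limma-trend.

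Of 34 listed genes known to act on claudins, 0 passed the test; 11 lay above both WT libraries and 6 below, beside 14.3% and 21.4% of all genes, with a median log2 difference of 0.11. Grhl2, a transcription factor of epithelial junction genes, stood at 1762 and 1700 in WT against 2625 and 2423 in the KO-labelled libraries. Its adjusted p was 0.759 in limma-trend and 0.0346 in DESeq2, which called 1 of 33 regulators tested and 4.76% of all genes. Cdx2, an intestinal transcription factor that acts on Cldn2, was on the other side, at 9105 and 10439 against 8698 and 6526. Lnx1, a ubiquitin ligase that takes claudins for degradation, stood at 1323 and 833.9 against 1573 and 1607, and the transcription factor Klf4 at 41418 and 37807 against 45162 and 56697.

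Lower values of such regulators were found for Vdr, the vitamin D receptor, at 15787 and 13251 against 12841 and 10584. Grhl1, a relative of Grhl2, stood at 234.4 and 348.3 against 58.17 and 117.5. Zeb2, a repressor of epithelial genes that is also made by leukocytes, stood at 90.17 and 281.7 against 53.32 and 25.64; the summed leukocyte markers, given above, were lower in the same libraries, and their part in this value was not tested.

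Of 27 other claudin and claudin-domain genes sought, 13 were listed; the table holds no transcript with a mean under 11.6, so the other 14 have no level here. Cldnd1, a claudin-domain protein, stood at 778.9 and 948 in WT against 180.3 and 898.3 in the KO-labelled libraries 1 and 2, and the other 12 had means under 140. Of the 13, 9 were at 0 in at least 1 library. Cldn5, the claudin of endothelium, stood at 116.1 in WT 1 and at 4.038, 15.51 and 3.309 elsewhere.

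Some of these genes were counted in WT 1 alone. Cldn18, the claudin of stomach and lung, stood at 184.9 there, Cldn6, an embryonic claudin, at 107.1 and Cldn20 at 48.47, and all were at 0 in the other 3 libraries. With the value of 3 reads in each library, averaged within the group, as the floor, these group means were at least 34.3-fold, 19.9-fold and 8.99-fold lower in the KO-labelled libraries. Those bounds rest on WT 1, since WT 2 was also at 0.

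Of the 10 other claudin genes tested, Cldn19 and Cldnd2 lay above both WT libraries, and Cldn11 and Cldn14 below, beside 14.3% and 21.4% of all genes. None had a limma-trend adjusted p under 0.759. Cldn19, a claudin of kidney and nerve, stood at 68.76 and 64.62 in WT against 137.7 and 105.1 in the KO-labelled libraries. Cldnd2 stood at 60.87 and 0 against 98.89 and 87.68. Cldn11, the claudin of myelin and testis, stood at 99.19 and 25.24 against 0 and 0.8272, which is 0 and 1 read. It passed the filter on low values through WT alone. Cldn14, a claudin of the inner ear, stood at 75.52 and 187.8 against 0 and 49.63.

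The last 4 listed genes had libraries of both groups on either side. Cldn13 stood at 66.5 and 18.17 in WT against 0 and 47.98 in the KO-labelled libraries. Cldn9 stood at 0 and 36.35 against 124.1 and 0, Cldn34c1 at 0 and 157.5 against 95.98 and 0, and Cldn10, a channel-forming claudin, at 58.61 and 9.087 against 149.3 and 8.272.

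**Figure D5:**
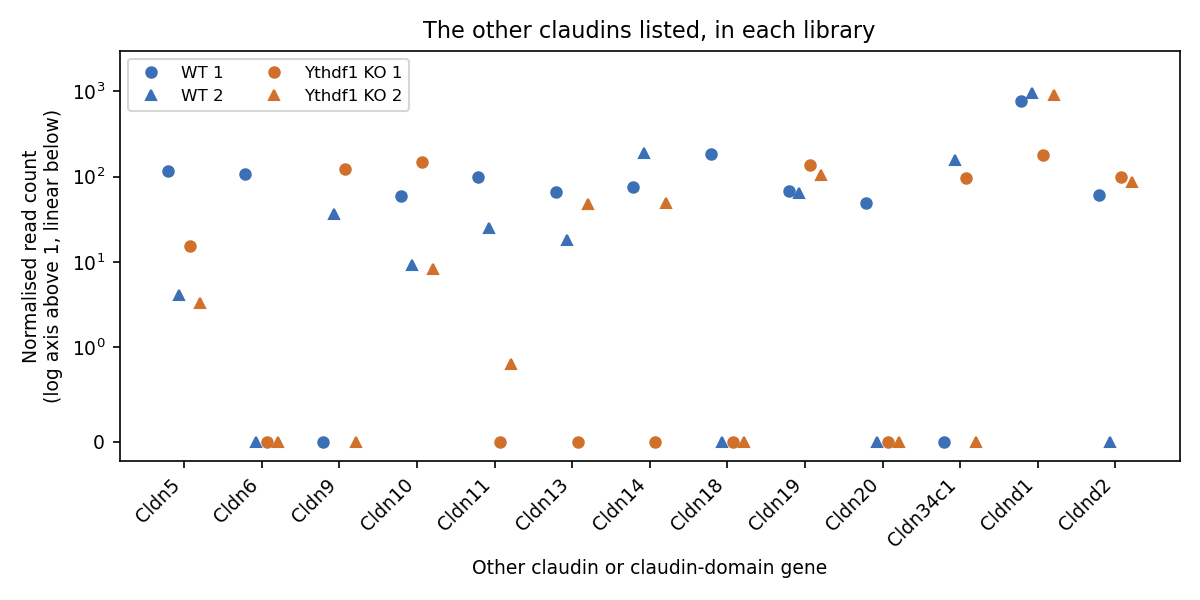
Normalised read counts of the 13 other claudin and claudin-domain genes listed (axis logarithmic above 1 and linear below, so that 0 is shown; blue WT, orange KO-labelled). Cldn6, Cldn18 and Cldn20 have a value above 0 in WT 1 alone, and 12 of the 13 have a mean under 140.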

How the data were processed

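Input RNA-seq of colon epithelial cells (2 libraries labelled WT, 2 labelled Ythdf1 KO) was taken from the deposited table of RefSeq transcripts. Per the submitters' processing notes the build was mm10 and the tools included Bowtie2 2.2.5 and SAMtools 1.3.1; the sources used here do not give the counting program, its use of strand or the authors' test, so reads of overlapping genes may not be told apart. The deposited signal per transcript is a read count divided by a size factor, as read from the values: 100% in each library were whole multiples, within 0.001, of the value of 1 read. The deposited log2 fold change, p-value and q-value are the authors'.

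Genes were represented by the transcript with the highest mean. The 23116 genes that reached 1 in at least 2 libraries were fitted with limma-trend 3.58.1 (robust, R 4.3.3) on log2(value + 1), which understates changes of low genes. All 9 claudins passed this filter. edgeR 4.0.16 and DESeq2 1.42.0 were run on recovered reads, and the fits were tested on simulated data. Intervals are exact and cover counting error only.

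Named genes were all listed claudins, and from the junction partner and regulator lists up to 4 per direction with groups apart, a mean of at least 100 and the largest log2 difference. A gene of the regulator list that this rule names is not reported here. Genes named from the marker and receptor lists were chosen after their values were seen. Lists were matched by symbol, and 3 genes through RefSeq gene identifiers. The members and lists were chosen with earlier results of these data known. Same-numbered libraries did not deviate together (correlation of -0.00795 over genes), so the numbers were not taken as pairs.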

Additional observations from a re-analysis of the deposited data

How the results depend on the processing

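In limma-trend 0 of the 9 claudins, 0 of 32 junction partners, 0 of 34 regulators and 0 genes in all were called. DESeq2 called 1, 1, 1 and 1110 (Cldn2, Lsr and Grhl2 in the lists), with 33 regulators tested and 4.76% of all genes called. Limma without a trend and without the robust option called 632 genes (2.73%) but no claudin. Leaving out 1 library gave 0 to 36 called genes in all (2 without WT 1, 6 without WT 2, 36 without KO-labelled 1, 0 without KO-labelled 2) and 0 in each list. The fit with the replicate block, with 1 residual degree of freedom, called 0 genes and gave Cldn2 a log2 difference of 1.01 with an adjusted p = 0.648.

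The pore-forming minus sealing difference of 0.98 was 0.11 without claudins of a mean under 100, 0.32 for summed values and 0.57 with quantile normalisation. With 0.5 or 5 added to each value in place of 1, it was 1.04 or 0.75. As settings chosen after seeing the data, it was 1.83 with Cldn2 alone and 0.13 with Cldn15 alone, both with Cldn1 among the sealing claudins. Leaving out 1 library gave 0.51 to 1.45. Transcript lengths were not used, so summed values were not divided by them. Leaving out 1 library turned the sign of Cldn3 (-0.12 without KO-labelled 1, range -0.12 to 0.20), Cldn4 (-0.33 without WT 1 and -0.20 without KO-labelled 2, range -0.33 to 0.53), Cldn7 (0.06 without WT 2, range -0.16 to 0.06), Cldn8 (-0.53 without WT 1, range -0.53 to 0.74) and Cldn12 (-0.08 without WT 1, range -0.08 to 1.13), and that of Cldn8 also turned in edgeR (-0.0099) and DESeq2 (-0.01); the cause was not tested. Cldn1, Cldn2, Cldn15 and Cldn23 kept their sign in every alternative that gave a value; Cldn1 was not tested with a minimum mean of 100, and quantile normalisation gave it -2.42.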

Other observations

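Genes that receive the cytokines known to act on claudins gave values on both sides. Of 13 such receptor genes, 0 passed limma-trend, 3 lay above both WT libraries and 1 below, beside 14.3% and 21.4% of all genes, with a median log2 difference of -0.01. Il10rb, a shared chain of the interleukin 10 and interleukin 22 receptors, stood at 785.6 and 877.4 in WT against 1295 and 1868 in the KO-labelled libraries (adjusted p = 0.759), and Il10ra, its partner chain that leukocytes make, at 116.1 and 92.88 against 2.908 and 28.12. The others above both WT libraries were Il6st, at 1092 and 1021 against 1376 and 1181, and Ifngr2, at 3152 and 3849 against 3973 and 4642. Il13ra1 and Il22ra1, whose ligands are known to act on Cldn2, stood at 1164 and 1286 against 1093 and 1172, and at 3308 and 3109 against 3284 and 3707. These genes were chosen after their values were seen.

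Transcripts of Cldn10 and of Cldn19 differed in which library had the highest value. For Cldn10, NM_021386.4, which begins downstream, stood at 58.61 and 9.087 in WT against 149.3 and 8.272 in the KO-labelled libraries, while NM_023878.3, which begins upstream, stood at 13.53 and 11.11 against 11.63 and 81.06. For Cldn19, NM_001038590.1, which ends short of the kept transcript, stood at 0 and 2.019 against 0.9695 and 98.43. The 3 shorter Cldn14 transcripts shared values of 75.52 and 136.3 against 0 and 0.8272, so they are not separate measurements. The authors' deposited table gave them q = 0.0115 and the kept Cldn14 transcript q = 0.599. The 3 shorter ones were its only calls among the 31 transcripts of the other claudins, beside 3.67% of all transcripts. These 3 passed the filter on low values through WT alone, and limma-trend over single transcripts gave them an adjusted p = 0.851.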
